A study of Homo sapiens with 32 samples.

Results

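Messenger RNA levels of 10 genes of the NRF2 antioxidant and iron-storage programme were followed in HCT116 cells, a human colorectal carcinoma line. The members were taken by name: every row of the deposited count table whose Ensembl identifier maps to NFE2L2, NQO1, HMOX1, GCLM, GCLC, TXNRD1, SRXN1, OSGIN1, FTH1 or FTL. All 10 were found among 60660 gene identifiers, and all 10 passed the filter on low counts in each comparison. They were chosen with earlier results of these data known, so shares of called members beside those of all genes are descriptive only. The study compared cells in which the RNA-binding protein gene IGF2BP3 or IGF2BP2 had been cut with Cas9, with and without tunicamycin, a drug that blocks N-linked glycosylation and so loads the endoplasmic reticulum with misfolded protein. Every cell, parental cells included, carried a doxycycline-inducible OsTIR1 gene (tetON OsTIR1). Knockout cells were single-cell clones sorted for GFP. IGF2BP3 KO was represented by clones A3 and E4, made with the same guide, and by D12, made with another. IGF2BP2 KO was represented by B7 and F6, which share a guide, and by G6. The parental cells were deposited as 2 parental samples, and together these make 8 lines with 2 libraries per line and treatment. The groups therefore held 4 parental libraries in DMSO and 4 in tunicamycin, and 6 and 6 for each knockout. Parental and IGF2BP3 KO cells received tunicamycin at 5 µg/mL for 4 h, against DMSO at a dilution of 1 in 1000. Dose and time for IGF2BP2 KO are not given in the sources used here. For the control libraries of G6 the title says control and the treatment field says tunicamycin, and they were placed in DMSO.

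NFE2L2 encodes NRF2, a transcription factor that the adaptor KEAP1 normally hands to a cullin ubiquitin ligase for degradation. When electrophiles or oxidants modify KEAP1, or when kinases such as PERK act on NRF2, the protein accumulates, pairs with a small MAF protein and binds the antioxidant response element of its target genes. Among those targets, GCLC and GCLM are the catalytic and modifier subunits of glutamate-cysteine ligase, which makes the glutathione precursor, and TXNRD1 is the cytosolic thioredoxin reductase. SRXN1 repairs over-oxidised peroxiredoxins, NQO1 reduces quinones, OSGIN1 is a stress-induced growth inhibitor, HMOX1 opens haem and releases its iron, and FTH1 and FTL are the heavy and light chains of ferritin, the iron-storage shell. NRF2 activity is largely set at the protein level, which these libraries do not measure.

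The consensus core of the antioxidant response element, TGACNNNGC on either strand, was searched in the 250 bases before each gene start in RefSeq promoters (GRCh38.p14), of which 8 of 10 members had an entry. It lay in 3830 of 35116 promoters (10.907%), and among the members it was found before GCLM and before both annotated starts of TXNRD1. The stretches that hold it are shown because GCLM was lower and TXNRD1 higher under tunicamycin in 16 of 16 pairs of libraries with the same line and replicate number. Each is written 5′ to 3′ on the gene's strand, with the element in capitals; for GCLM and the second TXNRD1 start the capitals read as the reverse complement of the core.
GCLM, chr1:93909456-93909485, minus strand: actttctcggctacgatttctGCTTAGTCA
TXNRD1 first start, chr12:104215659-104215688, plus strand: ttgaagaagatacacgggctaTGACTTCGC
TXNRD1 second start, chr12:104286909-104286938, plus strand: ctgcacgaggagtggatttctGCTTTGTCA
In GCLM the element occupied bases -34 to -26 from the start, and in TXNRD1 bases -99 to -91 and -102 to -94 of the respective starts. The core was not matched in the windows of NFE2L2, NQO1, GCLC, SRXN1, OSGIN1 and FTL, which says only that these letters are not in those windows. A match describes the letters and shows no binding.

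Library totals ran from 16651438 to 24913021 counts. IGF2BP3 stood at 70.1 to 82.8 CPM (read counts relative to the library total, scaled by TMM over all 32 libraries) in parental DMSO libraries and at 18.7 to 41.8 CPM in those of IGF2BP3 KO. IGF2BP2 stood at 159 to 195 CPM in parental and at 81.3 to 92.8 CPM in IGF2BP2 KO DMSO libraries. HSPA5, the main chaperone induced by unfolded protein, was at 774 to 1109 CPM in DMSO and at 7917 to 10903 CPM in tunicamycin. The G6 control libraries, whose treatment field says tunicamycin, were at 992 and 822 CPM, among the other DMSO libraries and far below every tunicamycin library. Of 8 epithelial markers 6 had a median above 1 CPM (not CDX1 or CEACAM5), while leukocyte and endothelial markers summed to less than 1 CPM in every library. COL1A1 had a median of 9.30 CPM, and the other fibroblast markers were at or near 0. In bulk RNA, fewer cells expressing a gene and less RNA per cell cannot be told apart. Replicate 1 and replicate 2 libraries separated on the second principal component, so values within each number are given beside the main results. The labels do not say that libraries came from separate cultures, and libraries of a clone are not independent, so p-values measure only the spread between these libraries.

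**Figure D1:**
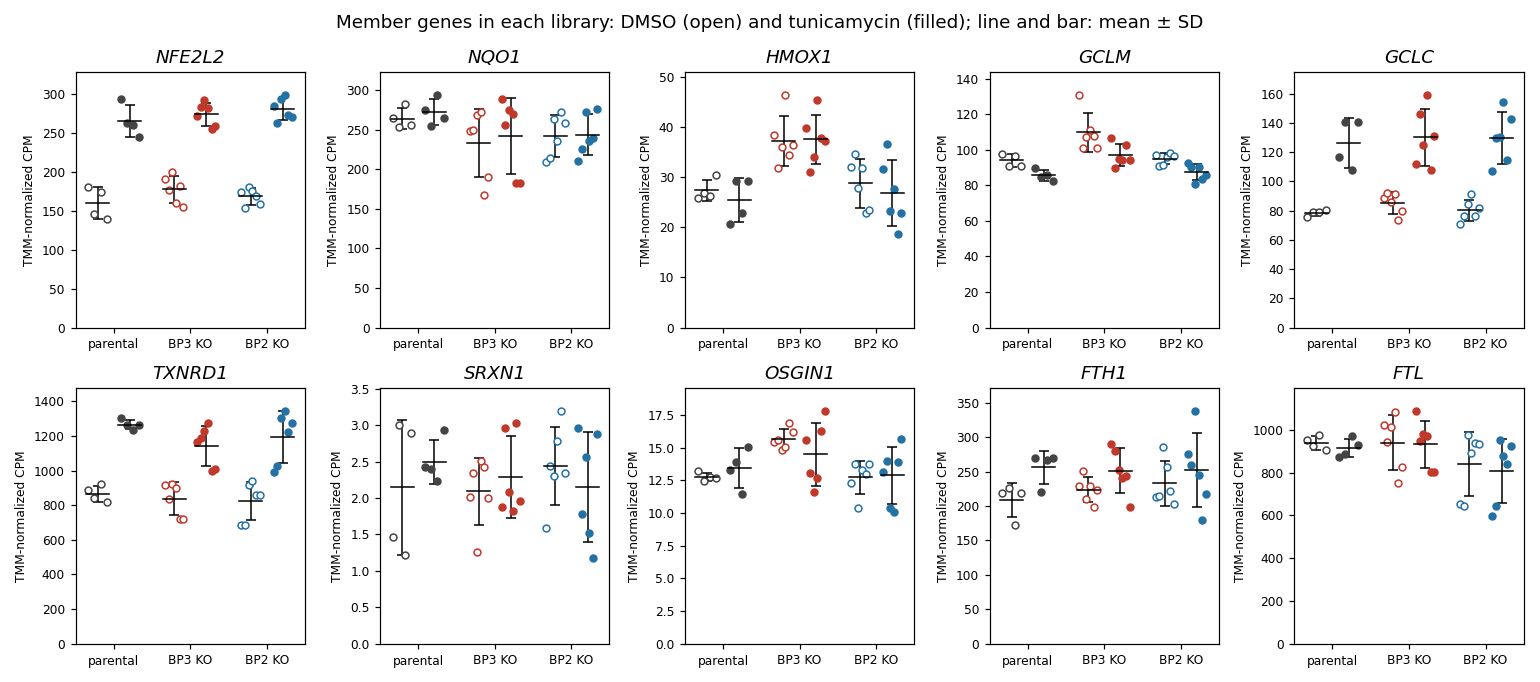
Level of each member (TMM-normalized CPM, linear axes starting at 0) in the 32 libraries, by genotype (BP3 KO, IGF2BP3 KO; BP2 KO, IGF2BP2 KO), with open points for DMSO and filled points for tunicamycin; lines and bars are mean ± SD (n = 4 for parental, 6 for each knockout). Filled points of NFE2L2, GCLC and TXNRD1 lie above the open points of the same genotype, while the other 7 members overlap between treatments in at least 1 genotype.

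All members are protein-coding. On GRCh38, by the GENCODE 29 annotation, NFE2L2 lies at chr2:177227595-177392697 (minus strand), GCLC at chr6:53497341-53616970 (minus), GCLM at chr1:93885205-93909456 (minus) and TXNRD1 at chr12:104215779-104350305 (plus). SRXN1 lies at chr20:646615-653370 (minus), and NQO1 and OSGIN1 share a chromosome, at chr16:69706996-69726951 (minus) and chr16:83948282-83966332 (plus). HMOX1 lies at chr22:35380361-35394214 (plus), FTH1 at chr11:61959718-61967660 (minus) and FTL at chr19:48965301-48966878 (plus). Levels of different genes were set side by side only per kilobase of annotated exon. In parental DMSO libraries FTL was at 1070 CPM per kilobase, TXNRD1 at 129, FTH1 at 103, NQO1 at 81.2, NFE2L2 at 26.8, GCLM at 17.4, HMOX1 at 11.4, GCLC at 9.08, OSGIN1 at 3.69 and SRXN1 at 0.795. By this measure ferritin light chain was the highest member and sulfiredoxin the lowest, with only 22 to 70 SRXN1 counts per library. Some exonic sequence is shared with other annotated genes. The sources used here do not say how reads in shared sequence were assigned, so the levels per kilobase of those members are uncertain. The share was 85.0% of SRXN1 bases (with AL121758.1, same strand), 62.4% of FTH1 bases (with BEST1, opposite strand), 17.7% of NQO1 bases (with an antisense gene) and 17.6% of NFE2L2 bases (with AC019080.1, same strand). It was 13.9% of OSGIN1 bases (with AC009119.2, same strand) and 6.12% of GCLC bases (with AL033397.1, same strand). Other overlaps were smaller. The ferritin genes also have many processed copies, which held 0.242% to 1.08% of the counts of FTH1, FTL and these copies together. This share holds only counts assigned to the copies, and how reads matching both were treated is not given. It therefore sets no limit on the uncertainty of the FTH1 and FTL levels.

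Tunicamycin raised 3 members in every genotype: the NRF2 gene itself, the catalytic subunit of glutamate-cysteine ligase and thioredoxin reductase. GCLM, the partner subunit of GCLC, was called lower in both knockouts, and the ferritin heavy chain FTH1 was called higher in IGF2BP3 KO. In parental cells they changed in the same directions, by log2 -0.13 and 0.30 (adjusted p 0.055 and 0.0529 in the main edgeR test). Both were called there when the replicate number was a block. NQO1, HMOX1, SRXN1, OSGIN1 and FTL passed the test in no genotype. In parental cells 3 of 10 members were called higher and 0 lower at an adjusted p under 0.05, where 12.5% of the 14398 genes tested were called higher and 14.3% lower. In IGF2BP3 KO 4 members were called higher and 1 lower (16.2% and 17.6% of 14265 genes, 33.8% together), and in IGF2BP2 KO 3 higher and 1 lower (19.2% and 20.9% of 14145 genes, 40.1% together). At an unadjusted p under 0.05 there were 5, 5 and 4 members, against 36.5%, 42.2% and 47.2% of genes. Treated and control libraries did not overlap for 4 members in parental cells and for 3 in each knockout, against 28.8% of genes in parental cells, 16.8% in IGF2BP3 KO and 16.6% in IGF2BP2 KO.

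NFE2L2 stood at 181 and 146 CPM in the DMSO libraries of parental sample 1 and at 174 and 139.8 CPM in those of sample 2. In tunicamycin the same samples gave 293 and 262 CPM, and 259 and 244 CPM. All 4 treated libraries lay above all 4 control libraries, with a log2 change of 0.73 and an SE of 0.08, or 1.66-fold (adjusted p 0.000113). Adjusted p-values come from the quasi-likelihood test of edgeR, adjusted over all genes by Benjamini-Hochberg, unless another tool is named. In IGF2BP3 KO, NFE2L2 ran from 155 to 199 CPM (median 179) in DMSO and from 255 to 292 CPM (median 276) in tunicamycin, a log2 change of 0.63 (SE 0.05, adjusted p 3.06e-07). IGF2BP2 KO clones had 153 to 179.7 CPM (median 171) of NFE2L2 in DMSO and 262 to 298 CPM (median 278) in tunicamycin, with a log2 change of 0.74 (SE 0.04, adjusted p 9.22e-10). The groups did not overlap in either knockout, and NFE2L2 was higher in tunicamycin in 16 of 16 same-numbered pairs of libraries.

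GCLC, the rate-limiting enzyme of glutathione synthesis, was at 75.5, 79.0, 78.7 and 80.7 CPM in the parental DMSO libraries and at 116, 141, 108 and 141 CPM in the matching tunicamycin libraries. The log2 change of GCLC was 0.69 (SE 0.10, adjusted p 0.000512), or 1.62-fold. GCLC rose from 73.6 to 92.4 CPM (median 87.2) to 108 to 159 CPM (median 128) in IGF2BP3 KO, a log2 change of 0.62 (SE 0.08, adjusted p 3.84e-05). Its level rose from 70.9 to 91.2 CPM (median 79.2) to 107 to 154 CPM (median 130.2) in IGF2BP2 KO, a log2 change of 0.70 (SE 0.07, adjusted p 1.15e-06). No treated library overlapped the control libraries of its genotype, and GCLC was higher in 16 of 16 pairs.

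TXNRD1, which keeps thioredoxin reduced, stood at 887, 842, 921 and 817 CPM in the parental DMSO libraries and at 1302, 1261, 1235 and 1262 CPM in tunicamycin. This was a log2 change of 0.55 (SE 0.05, adjusted p 3.02e-05), or 1.46-fold. In IGF2BP3 KO, TXNRD1 went from 722 to 924 CPM (median 869) to 998 to 1274 CPM (median 1178), a log2 change of 0.46 (SE 0.03, adjusted p 1.12e-07). In IGF2BP2 KO it went from 685 to 937 CPM (median 859) to 991 to 1341 CPM (median 1249.9), a log2 change of 0.54 (SE 0.03, adjusted p 6.08e-09). Here too the groups were apart in each genotype and 16 of 16 pairs rose. The low ends of both knockout groups came from a single clone each, described with the clones.

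The calls of NFE2L2, GCLC and TXNRD1 held in replicate 1 libraries alone and in replicate 2 libraries alone. In parental cells the log2 change was 0.65 and 0.83 for NFE2L2, 0.55 and 0.82 for GCLC, and 0.50 and 0.61 for TXNRD1, in replicate 1 and replicate 2 respectively. The corresponding values in IGF2BP3 KO were 0.53 and 0.75 for NFE2L2, 0.49 and 0.73 for GCLC, and 0.42 and 0.50 for TXNRD1. In IGF2BP2 KO they were 0.72 and 0.77 for NFE2L2, 0.62 and 0.78 for GCLC, and 0.53 and 0.56 for TXNRD1. Each estimate was thus somewhat higher in replicate 2, and that difference was not tested.

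GCLM, which lowers the substrate requirement of GCLC, was lower in tunicamycin in 16 of 16 pairs, by log2 0.01 to 0.29 per pair. Its parental libraries were at 97.7, 91.1, 96.4 and 91.0 CPM in DMSO and at 89.6, 84.5, 85.5 and 82.6 CPM in tunicamycin, without overlap, and the log2 change of -0.13 (SE 0.05) had an adjusted p of 0.055. With the replicate number as a block, GCLM was called in parental cells (-0.13, adjusted p 0.00749), as it was with counts summed per line (adjusted p 0.0441). In IGF2BP3 KO, GCLM fell from 101 to 131 CPM (median 108) to 89.5 to 107 CPM (median 94.5), a log2 change of -0.17 (SE 0.06, adjusted p 0.0433). In IGF2BP2 KO, GCLM fell from 90.6 to 98.2 CPM (median 96.2) to 81.0 to 92.4 CPM (median 88.0), a log2 change of -0.12 (SE 0.04, adjusted p 0.0306). In IGF2BP3 KO the GCLM call was lost in 4 of 13 alternatives: with DESeq2 size factors (adjusted p 0.0542) and without A3 (0.0596), D12 (0.228) or E4 (0.0815). In IGF2BP2 KO it was lost in 7 of 14: with no filter (0.0657), without the G6 control libraries (0.275), without F6 (0.114) or G6 (0.267), in replicate 1 (0.0826) or replicate 2 (0.0562) alone, and in the fit of all 32 libraries (0.0748). Within replicate numbers the GCLM change was -0.14 and -0.12 in parental cells, -0.17 and -0.16 in IGF2BP3 KO, and -0.14 and -0.08 in IGF2BP2 KO.

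FTH1, the heavy chain that oxidises iron, was at 219, 226, 172 and 218 CPM in parental DMSO libraries and at 269, 221, 266 and 269 CPM in tunicamycin. The log2 change of 0.30 (SE 0.10) had an adjusted p of 0.0529 and was 0.48 in replicate 1 and 0.14 in replicate 2. With the replicate block FTH1 was called in parental cells (0.30, adjusted p 0.0117), and in 10 of 14 alternatives in all. In IGF2BP3 KO, FTH1 rose from 199 to 251 CPM (median 226) to 199 to 291 CPM (median 248), with overlapping groups, a log2 change of 0.17 (SE 0.06, adjusted p 0.0432). That call was lost in 5 of 13 alternatives: without clone A3 (adjusted p 0.17), without D12 (0.192), in the fit of all 32 libraries (0.143), in limma voom with an estimated correlation (adjusted p = 0.104), and in replicate 2 libraries alone, where the change of FTH1 was 0.03 (adjusted p 0.59). In IGF2BP2 KO the log2 change of FTH1 was 0.11 (SE 0.08, adjusted p 0.326). FTL, the light chain that helps to nucleate the iron core, had log2 changes of -0.04 in parental cells (95% interval -0.14 to 0.07), -0.0046 in IGF2BP3 KO (-0.11 to 0.10) and -0.06 in IGF2BP2 KO (-0.14 to 0.03).

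For the other members the interval of the tunicamycin change included 0 in each genotype. For NQO1 the log2 change was 0.05 in parental cells (95% interval -0.06 to 0.16), 0.06 in IGF2BP3 KO (-0.04 to 0.16) and 0.01 in IGF2BP2 KO (-0.09 to 0.11). HMOX1 gave -0.10 (-0.37 to 0.18), 0.02 (-0.17 to 0.21) and -0.11 (-0.27 to 0.05) in the same order. OSGIN1 gave 0.08 (-0.14 to 0.29), -0.11 (-0.26 to 0.04) and 0.01 (-0.17 to 0.19). SRXN1 had the widest intervals, with changes of 0.23 (-0.47 to 0.93), 0.13 (-0.28 to 0.55) and -0.18 (-0.69 to 0.33). A moderate change in this low-count gene was thus not detectable at these counts.

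**Figure D2:**
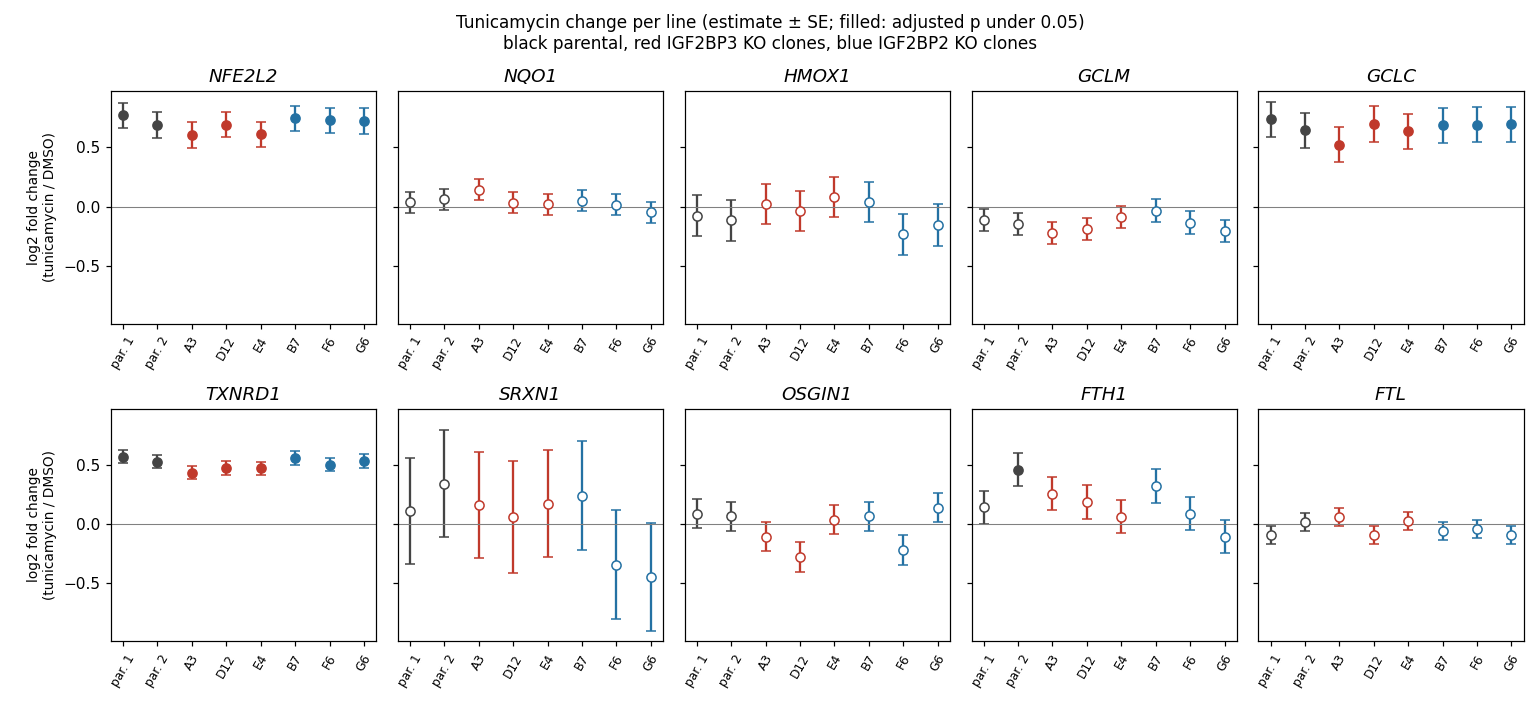
Tunicamycin change (log2 fold change, estimate ± SE) of each member in each of the 8 lines, from 2 treated against 2 control libraries per line, with the spread pooled over lines. Filled points passed an adjusted p under 0.05: NFE2L2, GCLC and TXNRD1 are filled in all 8 lines, FTH1 in parental sample 2 only, and the other members in none.

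In a single fit of all 32 libraries, with the spread pooled over lines, the same 3 members were called higher in each of the 8 lines. Of 16274 genes, 6.62% (E4) to 8.31% (parental sample 1) were called higher. Log2 changes of NFE2L2 ran from 0.61 in A3 to 0.77 in parental sample 1, those of GCLC from 0.52 in A3 to 0.74 in parental sample 1, and those of TXNRD1 from 0.44 in A3 to 0.57 in parental sample 1. FTH1 was also called in parental sample 2 (log2 change 0.46, adjusted p 0.0301), the sample with the DMSO library at 172 CPM. Without that library the adjusted p of FTH1 there was 0.373, and without either tunicamycin library of the sample it was 0.112 and 0.108. Leaving out single libraries took the GCLC call of parental sample 2, A3, D12, E4 and G6 above the threshold in at least 1 case each, with adjusted p up to 0.25 for A3.

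Whether knockout altered these responses was tested directly with interaction terms. No member passed in any of the 3 interactions, and 0 of 10 had an unadjusted p under 0.05. Of all genes 0.0% were called, and 1.67%, 1.4% and 1.82% had an unadjusted p under 0.05. DESeq2 also called 0 members. The difference in log2 change between IGF2BP3 KO and parental cells was -0.09 for NFE2L2 (95% interval -0.29 to 0.11), -0.07 for GCLC (-0.35 to 0.21) and -0.09 for TXNRD1 (-0.19 to 0.02). For IGF2BP2 KO against parental cells it was 0.01 for NFE2L2 (-0.18 to 0.20), 0.01 for GCLC (-0.24 to 0.25) and -0.01 for TXNRD1 (-0.13 to 0.10). Clones of a knockout did not pass the test of unequal responses either: 0 of 10 members in IGF2BP3 KO and 0 of 10 in IGF2BP2 KO, with 0% of all genes called in each.

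In unstressed cells HMOX1 and OSGIN1 were called higher in IGF2BP3 KO than in parental cells, in a test that counted each library as independent. Both calls were lost when counts were summed per line. HMOX1 and OSGIN1 were the 2 members called higher of 10, against 0.515% of 14568 genes called higher and 1.1% called lower (1.61% together). The members were chosen with earlier results of these data known, so this contrast is descriptive. At an unadjusted p under 0.05 there were 3 members, against 13.7% of genes. HMOX1, the haem-degrading enzyme, was at 25.9, 26.9, 26.3 and 30.3 CPM in parental DMSO libraries, a mean of 27.3 ± 2.02 CPM (SD, n = 4). In IGF2BP3 KO it ran from 31.9 to 46.3 CPM (median 36.2), a mean of 37.2 ± 4.95 CPM (SD, n = 6). All 6 knockout libraries lay above all 4 parental libraries, and the log2 difference was 0.44 (SE 0.09, adjusted p 0.0265). OSGIN1 was at 13.2, 12.4, 12.8 and 12.7 CPM in parental and from 14.8 to 16.9 CPM (median 15.5) in IGF2BP3 KO DMSO libraries, again without overlap. The difference was 0.29 on the log2 scale (SE 0.07, adjusted p 0.0395).

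GCLM showed the same arrangement in DMSO, with 91.0 to 97.7 CPM in parental and 101 to 131 CPM in IGF2BP3 KO libraries, but its log2 fold change of 0.22 (SE 0.06) had an adjusted p of 0.0955. Groups without overlap were thus found for 3 of 10 members, against 4.4% of all genes. The HMOX1 call was lost in 6 of 17 alternatives: with counts summed per line (adjusted p 0.0661), in the fit of all 32 libraries (0.207), in replicate 2 libraries alone (log2 0.41, adjusted p 0.573), and without either library of parental sample 1 (0.103 and 0.0736) or the first of parental sample 2 (0.0993). The OSGIN1 call was lost in 11 of 17 alternatives, with an adjusted p of 0.216 when counts were summed per line and of 0.0935 to 0.128 when a parental library was left out. Taken singly against parental cells, no IGF2BP3 KO clone was called for OSGIN1 (adjusted p 0.299 in A3, 0.574 in D12 and 0.059 in E4).

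Under tunicamycin 0 members were called between IGF2BP3 KO and parental cells, against 0.718% of 14626 genes (0.116% higher, 0.602% lower), and 2 had an unadjusted p under 0.05, against 10.3% of genes. HMOX1 was at 20.7, 29.2, 22.9 and 29.1 CPM in parental and at 31.1 to 45.3 CPM (median 37.5) in IGF2BP3 KO tunicamycin libraries, still without overlap (3.09% of genes). On the log2 scale HMOX1 differed by 0.55 (SE 0.12, adjusted p 0.067). DESeq2 called it (adjusted p 0.00186), as did limma voom with duplicateCorrelation (0.0317) and counts summed per line (0.0309). Within replicate numbers the HMOX1 difference was log2 0.77 (adjusted p 0.0311) and 0.37 (adjusted p 0.631). OSGIN1 under tunicamycin overlapped between the groups, with a log2 fold change of 0.11 (95% interval -0.16 to 0.38).

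IGF2BP2 KO against parental cells gave 0 called members in DMSO, against 0.0137% of all genes, and 0 in tunicamycin, against 0.00694%. None had an unadjusted p under 0.05, against 4.74% of genes in DMSO and 6.97% in tunicamycin, none was free of overlap between groups (1.06% and 1.47% of genes), and DESeq2 called 0 members in both. In DMSO the log2 difference was 0.08 for HMOX1 (95% interval -0.18 to 0.34), 0.00 for OSGIN1 (-0.19 to 0.20) and 0.02 for GCLM (-0.08 to 0.12). Both knockouts were compared with the same parental libraries, so the knockouts were also set against each other. IGF2BP3 KO against IGF2BP2 KO called 0 members in DMSO (0.589% of all genes called), with 3 members at an unadjusted p under 0.05 (14% of genes), GCLM and OSGIN1 without overlap (1.4%). These were HMOX1 (log2 0.37, SE 0.11, adjusted p 0.151), OSGIN1 (0.29, SE 0.08, adjusted p 0.11) and GCLM (0.20, SE 0.06, adjusted p 0.112). DESeq2 called OSGIN1 and GCLM there (adjusted p 0.0319 and 0.0434). In tunicamycin again 0 members were called (0.391% of all genes, and 1.29% without overlap), with HMOX1 at log2 0.48 (SE 0.14, adjusted p 0.147).

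Single clones differed in other members. Within IGF2BP3 KO, NQO1 (adjusted p 2.07e-05), TXNRD1 (0.000435) and FTL (0.00221) differed among the 3 clones over both treatments, 3 of 10 members against 7.05% of 15074 genes. Within IGF2BP2 KO the same 3 differed (0.0046, 8.16e-06 and 1.74e-06), as did HMOX1 (0.00046), FTH1 (0.015) and OSGIN1 (0.0463), 6 of 10 against 24.6% of 14952 genes. The OSGIN1 call there was lost in 11 of 18 alternatives. Over the 8 lines in DMSO, NQO1, HMOX1, TXNRD1 and FTL differed, 4 of 10 against 10.4% of 15674 genes, and without the G6 control libraries the adjusted p of HMOX1 was 0.0504.

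Clones E4 and B7, which belong to different knockouts, had the lowest NQO1, TXNRD1 and FTL levels of the 8 lines. NQO1 in DMSO stood at 168 and 191 CPM in E4 and at 209 and 214 CPM in B7, while the 12 other DMSO libraries lay between 236 and 283 CPM. TXNRD1 was at 722 and 722 CPM in E4 and at 687 and 685 CPM in B7, and at 817 to 937 CPM in the other lines. FTL was at 749.5 and 825 CPM in E4 and at 655 and 646 CPM in B7, and at 891 to 1084 CPM in the others. For each of these genes E4 and B7 did not overlap each other or the next line in the order, whereas the remaining 6 lines overlapped their neighbours.

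The same clones had the lowest values of these 3 genes in tunicamycin. NQO1 was at 182 and 183 CPM in E4 and at 211 and 226 CPM in B7, and TXNRD1 at 998 and 1008 CPM in E4 and at 991 and 1024 CPM in B7. FTL under tunicamycin was at 803 CPM in both E4 libraries and at 599 and 644 CPM in B7. TXNRD1 nevertheless rose in both clones, by log2 0.47 (SE 0.06, adjusted p 2.79e-06) in E4 and 0.56 (SE 0.06, adjusted p 2.36e-07) in B7.

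Against parental cells in DMSO, E4 was called lower for NQO1 (log2 -0.56, SE 0.08, adjusted p 0.000107), TXNRD1 (-0.27, SE 0.05, adjusted p 0.00247) and FTL (-0.26, SE 0.07, adjusted p 0.0331), 3 of 10 members against 2.13% of 16274 genes. B7 was called lower for NQO1 (-0.32, SE 0.08, adjusted p 0.015), TXNRD1 (-0.33, SE 0.05, adjusted p 0.000133) and FTL (-0.53, SE 0.07, adjusted p 1.76e-05), against 2.09% of genes. These comparisons share the parental libraries. The FTL call of E4 was lost in 9 of 22 alternatives and the NQO1 call of B7 in 5 of 22. A3, which carries the same guide as E4, gave log2 differences of -0.09 (SE 0.08) for NQO1, 0.01 (SE 0.05) for TXNRD1 and 0.06 (SE 0.07) for FTL. F6, which shares its guide with B7, gave -0.08 (SE 0.08) for NQO1, 0.10 (SE 0.05) for TXNRD1 and -0.01 (SE 0.07) for FTL.

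HMOX1 was ordered differently. Its DMSO mean was lowest in G6 (23.1 CPM) and rose through parental sample 1 (26.4), parental sample 2 (28.3), F6 (29.9), B7 (33.3), A3 (35.1) and E4 (35.4) to D12 (41.2 CPM), a range of 1.78-fold. Neighbours in this order overlapped except at G6 against parental sample 1 and at F6 against B7. D12 was the only clone called against parental cells (log2 0.58, SE 0.14, adjusted p 0.0431, where 0.344% of genes were called higher), and that call was lost in 8 of 22 alternatives. A3 and E4 had log2 differences of 0.35 (SE 0.15, adjusted p 0.365) and 0.37 (SE 0.15, adjusted p 0.239). No member was called in A3 (1.55% of genes called), F6 (4.01%) or G6 (0.27%).

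**Figure D3:**
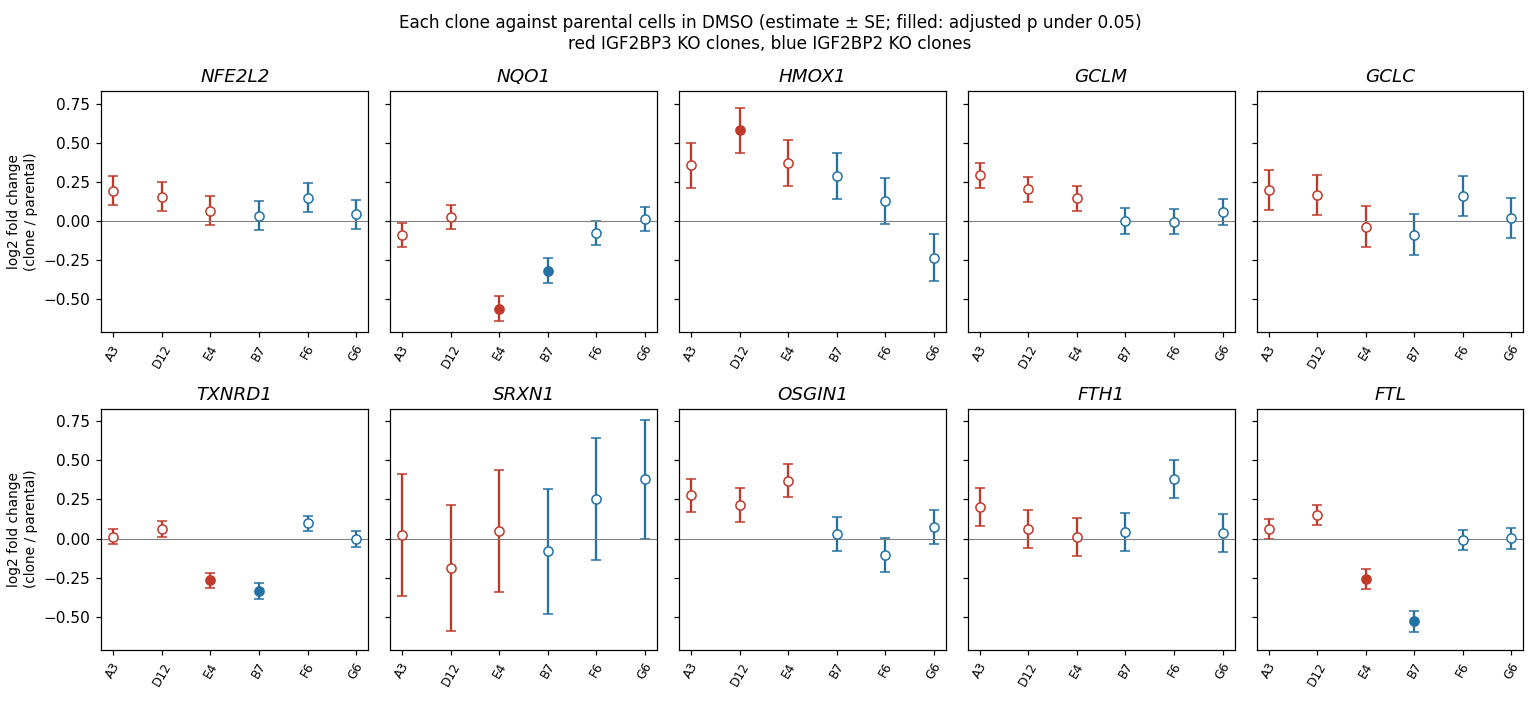
Level of each member in each knockout clone against the parental samples in DMSO (log2 fold change, estimate ± SE; 2 libraries per clone, 4 parental), filled where the adjusted p was under 0.05. NQO1, TXNRD1 and FTL are filled and below 0 in E4 and B7, HMOX1 is filled and above 0 in D12, and no other point is filled.

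Line means in the 2 treatments, each centred within its treatment, described how the members varied together (16 points, with SRXN1 left out for its low level). Each line enters in both treatments, so the points are not independent. Pearson's r was 0.84 between NQO1 and TXNRD1, 0.83 between TXNRD1 and FTL, 0.71 between NQO1 and FTL, 0.82 between NFE2L2 and GCLC, 0.77 between GCLC and TXNRD1, 0.69 between GCLC and FTL, and 0.76 between HMOX1 and GCLM. NFE2L2 against NQO1 gave 0.19. The lowest values were -0.51 between NQO1 and OSGIN1 and -0.48 between TXNRD1 and OSGIN1. The values among NQO1, TXNRD1 and FTL come from the same libraries in which E4 and B7 were lowest. Of 10113 genes with a mean of at least 5 CPM, those nearest to NFE2L2 by the same measure were MTREX (r 0.95), WDR43 (0.95) and MPHOSPH6 (0.94). Nearest to NQO1 were UBE3A (0.95), HS3ST1 (0.95) and NANS (0.93), nearest to HMOX1 were KPNB1 (0.93), TRIP10 (0.91) and IMPDH1 (0.90), and nearest to FTH1 were ANAPC16 (0.89), RTN4IP1 (0.88) and TPCN1 (0.84).

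Of 15 regulators and partners of NRF2 tested under tunicamycin, 4 rose, 3 fell and 8 were not called in parental cells, where 12.5% of all genes were called higher and 14.3% lower. The counts were 4 higher and 3 lower in IGF2BP3 KO (16.2% and 17.6% of all genes) and 6 higher and 3 lower in IGF2BP2 KO (19.2% and 20.9%). KEAP1, the NRF2 inhibitor, fell by 0.46 (SE 0.05, adjusted p 8.95e-05) on the log2 scale in parental cells, by 0.47 in IGF2BP3 KO and by 0.52 in IGF2BP2 KO. The small MAF partners MAFF and MAFG rose, by log2 1.58 and 0.33 in parental cells, 1.45 and 0.27 in IGF2BP3 KO, and 1.48 and 0.33 in IGF2BP2 KO. The related factor NFE2L1 rose by 0.46, 0.42 and 0.41 in the same order, while NFE2L3 fell by 0.27, 0.28 and 0.37. BTRC, which delivers NRF2 to a KEAP1-independent ligase, fell by 0.29, 0.30 and 0.24.

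Of 33 further NRF2 targets 25 were tested, and 3 rose and 2 fell in parental cells, 4 and 2 in IGF2BP3 KO, and 4 and 4 in IGF2BP2 KO. Among all genes, 12.5%, 16.2% and 19.2% were called higher and 14.3%, 17.6% and 20.9% lower in the same order. Their median log2 change in parental cells was -0.02, against -0.01 over all 14398 genes tested and 0.15 over the 10 members. UGDH, which makes the sugar donor for glucuronidation, rose 2.73-, 2.46- and 2.73-fold in parental, IGF2BP3 KO and IGF2BP2 KO cells. On the log2 scale, IDH1, a cytosolic NADPH source, rose by 0.22, 0.27 and 0.19. The conjugate exporter ABCC2 fell by 0.31, 0.34 and 0.25, and the microsomal glutathione transferase MGST1 by 0.20, 0.22 and 0.23.

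Of 12 glutathione genes tested, 5 rose and 0 fell in parental cells, 7 and 0 in IGF2BP3 KO, and 6 and 1 in IGF2BP2 KO, and the others, 7, 5 and 5, were not called. Of all genes, 12.5%, 16.2% and 19.2% were called higher and 14.3%, 17.6% and 20.9% lower in the same order. CHAC1, which degrades glutathione, had the greatest change in the list, 5.44, 5.60 and 5.42 on the log2 scale. SLC7A11 and SLC3A2, which together form the cystine importer, rose by 2.03 and 1.25 in parental cells, 1.99 and 1.08 in IGF2BP3 KO, and 2.11 and 1.14 in IGF2BP2 KO. These are the 3 greatest increases of 5 genes called higher in every genotype.

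Of 17 iron and haem genes tested, 3 rose and 5 fell in parental cells, 3 and 4 in IGF2BP3 KO, and 4 and 5 in IGF2BP2 KO. The shares of all genes were 12.5%, 16.2% and 19.2% called higher and 14.3%, 17.6% and 20.9% called lower. The iron chaperone PCBP2, which loads ferritin, rose by 0.30, 0.26 and 0.23, FECH, the last enzyme of haem synthesis, by 0.30, 0.23 and 0.20, and the iron importer SLC11A2 by 0.28, 0.21 and 0.24. The reductase CYBRD1 fell by 0.37, 0.38 and 0.41. The haem exporter FLVCR1 fell by 0.34, 0.32 and 0.33. Between genotypes these lists gave single calls, named after their values were seen. ME1, a cytosolic NADPH-producing malic enzyme, was higher in IGF2BP3 KO than in parental DMSO libraries (log2 0.19, adjusted p 0.0317). It was 1 of 25 further targets tested, against 0.515% of all genes called higher. GLRX, a glutathione-dependent glutaredoxin, was lower in IGF2BP3 KO than in parental cells under tunicamycin (log2 -0.42, adjusted p 0.0142). It was 1 of 13 glutathione genes tested there, against 0.602% of all genes called lower. Alternatives were not run for these list genes.

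**Figure D4:**
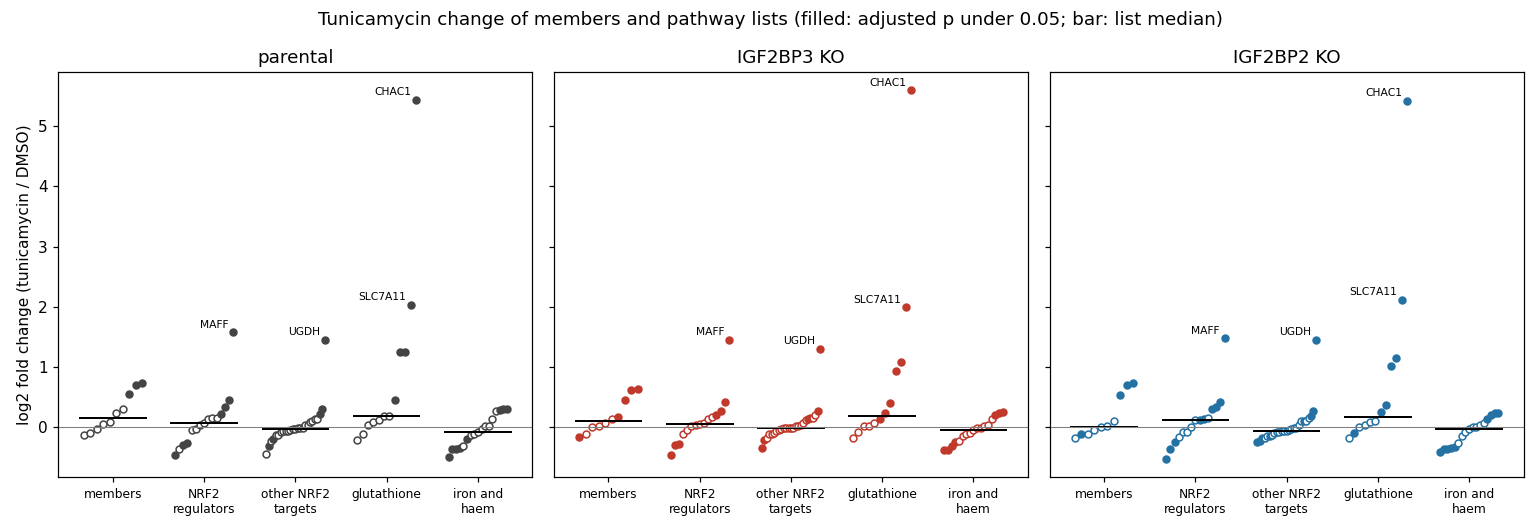
Tunicamycin change (log2 fold change) of the members and of the lists of NRF2 regulators, other NRF2 targets, glutathione genes and iron and haem genes, by genotype; each point is a gene, filled where the adjusted p was under 0.05, and the bar is the list median. CHAC1 and SLC7A11 lie highest in each genotype, and the medians of all 5 lists lie between -0.09 and 0.18.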

How the data were processed

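RNA of 32 libraries was selected for poly(A) and made into strand-specific libraries, per the labels' protocols. The deposited values are raw counts per gene, made by the authors with STAR 2.7.5c on hg38, per the submitters' processing notes; the counting tool, annotation and use of strand are not given in the sources used here. Totals ran from 16651438 to 24913021 counts. Groups follow the titles. The members and all gene lists were chosen with earlier results of these data known.

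Each comparison was fitted over all genes with edgeR 4.0.16 (R 4.3.3; TMM, filterByExpr, quasi-likelihood test) on the libraries it concerns, and p-values were adjusted by Benjamini-Hochberg over all genes tested, with 0.05 as the threshold. Clones and lines were compared in fits pooling the spread over lines. The scripts were tested on simulated counts. Intervals are 95%. CPM are TMM-scaled over 32 libraries, and SDs are over libraries. Alternatives were DESeq2 1.42.0, limma 3.58.1 voom with duplicateCorrelation, other size factors and filters, a replicate block, single replicate numbers, sums per line, and fits without each library or clone; leaving out single libraries in the clone and line tests was added after seeing the data.

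Same-numbered libraries deviated together: 118 of 120 correlations of deviations from group means were above 0.1 (median 0.427, lowest 0.0772). The second principal component (14.2% of variance) separated the numbers. The main tests did not model the replicate number, and a replicate block was run only as an alternative. The 2 libraries of a line and treatment did not agree within sampling noise in any case. The text names all 10 members, up to 3 genes of each list with the largest increase and up to 3 with the largest decrease among those called the same way in all 3 genotypes, list genes called between genotypes, and the 3 genes nearest to NFE2L2, NQO1, HMOX1 and FTH1. A list gene that this rule selects is not reported here. Positions come from GENCODE 29 on GRCh38, which may not be the authors' annotation, and promoter sequence from RefSeq (GRCh38.p14).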

Additional observations from a re-analysis of the deposited data

Results flagged for a closer look

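Among 60 groups of 4 or 6 libraries tested for a value far from the others (Dixon's test, 95%), 3 had one; chance gives about 1 in 20. GCLM was at 131 CPM in the first DMSO library of clone A3, while the other IGF2BP3 KO DMSO libraries lay between 101 and 111 CPM. FTH1 was at 172 CPM in the first DMSO library of parental sample 2, where the others had 218 to 226 CPM. FTH1 was at 221 CPM in the second tunicamycin library of parental sample 1, where the others had 266 to 269 CPM.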

How the results depend on the processing

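No called value changed direction. Of the alternatives for single members, 7053 kept their side of the threshold, 66 passed it newly and 81 no longer passed. The cause was not tested. The 7053 include values called in neither setting, so they do not measure how stable the calls are. The tunicamycin calls of NFE2L2, GCLC and TXNRD1 in each genotype held in all alternatives run. The number of members called under tunicamycin in parental cells was 3, and 5 with a replicate block, 6 in replicate 1 libraries alone and 5 with counts summed per line. In IGF2BP3 KO it was 5, and 3 to 4 when a clone was left out. IGF2BP3 KO against parental cells in DMSO gave 2, with 0 to 2 when a library or clone was left out, 1 in replicate 1 alone, and 0 in replicate 2 alone, in a fit of all 32 libraries and with sums per line. In tunicamycin it gave 0, and 1 with DESeq2, no filter, the replicate block, replicate 1 alone, sums per line or voom. IGF2BP3 KO against IGF2BP2 KO gave 0 in DMSO, 2 with DESeq2 and 1 in the fit of all 32 libraries, and 0 in tunicamycin, 1 with DESeq2, with no filter and in the fit of all libraries. With the replicate block the count rose from 3 to 5 among IGF2BP3 KO clones, from 4 to 8 over the 8 lines, and from 7 to 11 for single clones against parental cells, where leaving out a library gave 4 to 8. At 22 to 70 counts per library, SRXN1 had wide intervals. The alternative without the G6 control libraries was not run for the responses of IGF2BP2 KO clones.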
